A study of Mus musculus with 36 samples.

Results

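DNase-hypersensitive sites (DHS) are stretches of chromatin that the nuclease DNase I cuts more readily than its surroundings, and DNase-seq measures them by sequencing the released fragments. Of the 52788 DHS in the table, 1063 (2.01%) lay at promoters of long noncoding RNAs and away from those of coding genes. A DHS was taken when it came within 1000 bp of the transcription start site (TSS) of a lincRNA, antisense or processed_transcript gene in the GENCODE vM21 basic annotation (mm10), and not within 1000 bp of any protein-coding TSS. Of 2110 DHS near a noncoding TSS, 1047 also lay near a coding TSS and were left out. The 1063 DHS served 973 noncoding genes, which is 10.1% of the 9603 genes of these types in the annotation.

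The samples were 36 DNase-seq libraries of the mouse B3 line, which models the pre-BI stage of B-cell development. The Ikaros line was B3 transduced with a retroviral MSCV vector for HA-tagged Ikaros fused to the ERt2 domain (Ikaros-ERt2), with IRES-GFP, so that 4-hydroxytamoxifen moves the fusion protein into the nucleus. The control line carried what the study calls the empty vector, an MSCV vector for the ERt2 domain with IRES-GFP. Each line was collected at 0, 2, 6, 12, 18 and 24 h with 3 replicates (numbers 4, 5 and 6, named as batches 11, 12 and 13), which makes 12 groups of 3. Both lines were given the drug at 0.5 µM. The labels name the drug for the 0 h samples as well, whereas the study's methods describe 0 h cells as untreated and as obtained separately, and the files do not settle which applies. Each line is 1 transduced cell population, and 24 h of induction in culture is a model of one developmental step rather than the step in bone marrow.

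Long noncoding RNAs are transcribed by RNA polymerase II from promoters that, like those of coding genes, lose nucleosomes around the start site when they are in use. Many act at their own locus or serve as host transcripts from whose introns or exons microRNAs and small nucleolar RNAs are cut. Ikaros, encoded by Ikzf1, is a zinc finger DNA-binding protein that is needed for lymphocyte development and that drives pre-B cells out of the cell cycle and into differentiation.

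The sequences of 7 DHS that differed between the lines at 0 h (limma adjusted p under 0.05) are given first. At 1 of them, Mir155hg, the groups overlapped. These 7 were picked for display, and among them the lower ones held fewer CG dinucleotides. Over all noncoding promoters, the direction at 0 h in the deposited values was set against the CpG ratio, explained below. At a ratio of at least 0.6, 41 were higher and 3 lower, and under it 26 were higher and 30 lower. The link of direction with the CpG ratio was weaker with trends on level, GC content and width removed, as given below. The sequences were read from RefSeq GRCm38.p6, forward strand, 5′ to 3′, with every CG dinucleotide in capitals. Dleu2 (chr14:61682297-61682415), Pvt1 (chr15:62037921-62038051), Mir155hg (chr16:84702932-84703062) and Mir17hg (chr14:115042138-115042301) were higher in the Ikaros line at 0 h and hold 6, 21, 13 and 22 CG. Gm15945 (chr15:75660346-75660476), Gm15777 (chr5:100671538-100671668) and Gm19331 (chr12:115386632-115386762) were lower and hold 2, 3 and 0.
Dleu2: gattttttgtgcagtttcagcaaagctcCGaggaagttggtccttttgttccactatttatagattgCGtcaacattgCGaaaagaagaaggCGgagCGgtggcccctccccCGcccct
Pvt1: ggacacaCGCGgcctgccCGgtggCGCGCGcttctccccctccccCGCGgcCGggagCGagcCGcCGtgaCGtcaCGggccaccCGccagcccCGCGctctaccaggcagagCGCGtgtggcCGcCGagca
Mir155hg: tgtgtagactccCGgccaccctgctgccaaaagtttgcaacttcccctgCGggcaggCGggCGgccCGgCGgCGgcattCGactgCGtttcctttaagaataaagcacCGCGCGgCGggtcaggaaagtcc
Mir17hg: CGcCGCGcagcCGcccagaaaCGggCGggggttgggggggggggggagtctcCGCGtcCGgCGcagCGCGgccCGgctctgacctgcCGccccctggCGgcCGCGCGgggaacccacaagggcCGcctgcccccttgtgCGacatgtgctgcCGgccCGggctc
Gm15945: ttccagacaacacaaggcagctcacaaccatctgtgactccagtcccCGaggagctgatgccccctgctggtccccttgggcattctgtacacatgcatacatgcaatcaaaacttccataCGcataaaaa
Gm15777: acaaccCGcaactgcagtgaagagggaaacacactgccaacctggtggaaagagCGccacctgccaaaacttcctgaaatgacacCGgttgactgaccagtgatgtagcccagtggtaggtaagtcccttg
Gm19331: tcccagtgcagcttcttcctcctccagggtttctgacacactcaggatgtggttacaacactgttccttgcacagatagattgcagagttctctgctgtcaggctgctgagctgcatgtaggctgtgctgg

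The next sequences belong to 5 of the DHS that separated the lines most stably at 24 h. In these 5, capitals mark letters of any of 5 short motifs searched on both strands. They were TGGGAA (Ikaros core), GGAAGT (ETS core), TGTGGT (RUNX core), CAGCTG (E-box) and CCCTC (searched for CTCF). CCCTC occurred in the central 100 bp of 36.9% of all DHS, and a match to it does not locate a CTCF site. Gm16754 (chr9:21225262-21225420) is shown whole. Of Gm48940 (chr14:49300445-49300544), Gm11947 (chr11:3535404-3535503), Gm47680 (chr9:32613047-32613146) and Gm30246 (chr14:76781680-76781779) the central 100 bases are shown. Gm16754 and Gm30246 each hold 1 RUNX core, and Gm48940, Gm11947 and Gm30246 each hold 1 match to CCCTC. None of these windows holds the 6 letters of the Ikaros core.
Gm16754: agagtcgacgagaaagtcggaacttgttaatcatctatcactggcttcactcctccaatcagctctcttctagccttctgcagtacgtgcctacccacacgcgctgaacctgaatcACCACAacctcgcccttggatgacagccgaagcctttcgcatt
Gm48940: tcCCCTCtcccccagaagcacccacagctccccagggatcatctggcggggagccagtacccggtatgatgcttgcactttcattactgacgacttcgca
Gm11947: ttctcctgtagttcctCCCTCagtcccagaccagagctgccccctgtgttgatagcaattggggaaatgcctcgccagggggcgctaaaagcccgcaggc
Gm47680: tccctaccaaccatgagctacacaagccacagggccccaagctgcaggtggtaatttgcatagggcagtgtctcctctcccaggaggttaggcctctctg
Gm30246: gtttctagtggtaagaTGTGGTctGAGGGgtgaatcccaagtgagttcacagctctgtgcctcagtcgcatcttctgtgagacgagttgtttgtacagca

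By gene type, 645 of the 1063 DHS lay at lincRNA genes, 288 at antisense genes and 130 at processed_transcript genes. The TSS itself lay outside coding genes for 789, inside a coding gene on the opposite strand for 258 and inside one on the same strand for 16. A TSS fell within the DHS for 377 (35.5%), and the others sat at a median of 442.5 bp from it. In relation to their own gene, 525 overlapped an exon, 175 lay in an intron and 363 lay outside the gene. The median distance to the nearest coding TSS was 25855 bp. DHS at genes that host small RNAs numbered 70. The gene names were checked against RefSeq, which listed 569 as long noncoding, listed 16 as protein-coding and did not list 471.

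In sequence the noncoding promoters resembled distal sites more than coding promoters. The CpG ratio, which is the number of CG dinucleotides over that expected from base composition, had a median of 0.331 in the noncoding promoter DHS, 0.759 in the 11589 DHS at coding promoters and 0.215 in the 39131 distal DHS (over 1000 bp from any TSS). A ratio of at least 0.6 (CpG-rich) was held by 210 of the 1063 (19.8%), by 72.2% of coding promoter DHS and by 4.28% of distal DHS. Among the noncoding promoters, this share was 60.0% at small RNA hosts, 37.7% at processed_transcript, 19.4% at lincRNA and 12.5% at antisense genes. It was 32.1% where the DHS held the TSS and 13.0% where it did not. GC content had a median of 51.3%, against 60.5% at coding promoters and 48.1% at distal sites.

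Widths had a median of 500 bp, and 412 DHS (38.8%) were at most 200 bp wide, against 22.5% of coding promoter and 53.2% of distal DHS. In the central 100 bp, the Ikaros core TGGGAA occurred in 9.03% of the noncoding promoters and in 8.58% of all DHS. The RUNX core TGTGGT occurred in 13.6%, against 5.83% of coding promoters and 16.7% of distal sites. The E-box CAGCTG occurred in 9.41%, against 5.14% and 9.23%. The ETS core GGAAGT occurred in 16.5%, against 16.2% and 14.7%, and CCCTC in 38.3%, against 40.7% and 35.8%. A match of letters is a description and not a bound site.

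Every level below is the deposited log2 read density of a DHS, as reads per kilobase of DHS and per mapped reads of the library (RPKM), after the authors' scaling and noise correction, so that 1 unit is a doubling. It is per length and can be compared between DHS. In bulk libraries, a larger share of cells with an open site and a more open site in each cell cannot be told apart. Noncoding promoter DHS were open at a level between the other classes in all 36 libraries. Their mean over the 36 libraries had a median of 4.09 (quartiles 3.68 and 4.61, range 2.07 to 6.57), against 4.67 at coding promoters and 3.82 at distal sites. Taken library by library, the median of the noncoding promoters lay 0.54 below that of coding promoters (0.19 to 0.84 below, in 36 of 36 libraries) and 0.27 above that of distal DHS (0.13 to 0.43, in 36 of 36).

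**Figure D1:**
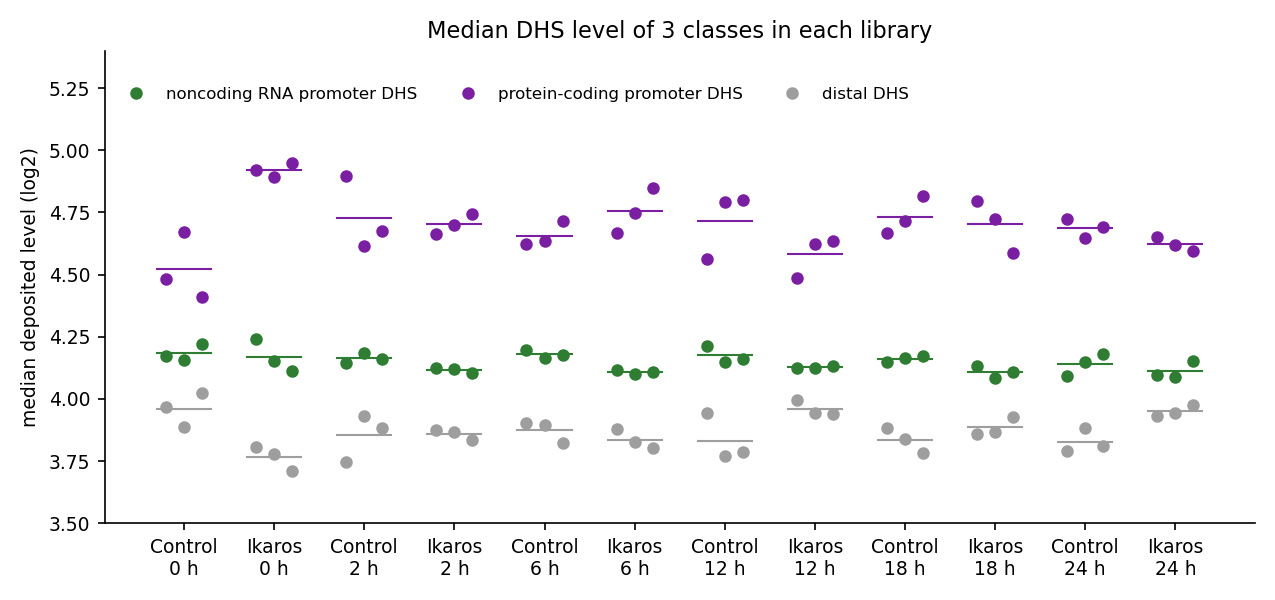
Median deposited level (log2) of noncoding promoter, protein-coding promoter and distal DHS in each of the 36 libraries, with a point per library, a line at the mean of each group of 3, and the groups ordered by collection time. The noncoding promoters lie between the other classes in every library, and their medians stay between 4.08 and 4.24 while those of coding promoters run from 4.41 to 4.95.

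Noncoding promoters rich in CpG were the more open ones. The 210 CpG-rich noncoding promoters had a median mean level of 4.58 and the other 853 one of 3.99. The CpG-rich ones were higher by 0.61 in the median library (0.27 to 0.94, 36 of 36 libraries). Within the same CpG class they still lay below coding promoters, by 0.22 for CpG-rich DHS (36 of 36 libraries) and by 0.23 for the others (36 of 36). The comparison was not matched for the place of the TSS. Noncoding promoter DHS that held a TSS had a median mean level of 4.28, and those that did not had one of 4.00. DHS at small RNA hosts lay 0.35 above the median noncoding promoter (36 of 36 libraries).

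The 10 most open noncoding promoter DHS had mean levels of 5.98 to 6.57, and 9 of them were CpG-rich and 6 held the TSS. The highest was the 655 bp DHS over the start of 4932412D23Rik, 31821 bp from the TSS of Zbtb20, at 6.57. The promoter of Mir22hg, the host of miR-22, stood at 6.39, with 24 h values of 6.43, 6.35 and 6.50 in the control line and 6.59, 6.51 and 6.16 in the Ikaros line. The groups overlapped, and the difference was -0.01. The others were at Gm16538, 1810026B05Rik, Gm15287, 1700028E10Rik, Zswim6 (typed processed_transcript in the annotation used), Gm44686, 6530413G14Rik and the 104 bp DHS of 4932412D23Rik. Genes count as noncoding here by the GENCODE type alone, and RefSeq listed 16 of the 1063 as protein-coding. At 1810026B05Rik and Gm44686 the nearest coding gene was in both cases Chd2, a chromatin remodeller.

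Across the whole series, library medians ran from 3.90 to 4.11 and the depth of each library is not known from these values, so no counting interval is given. DHS were present at promoters of 9 of 11 pre-B markers (Rag2 and Ighm had none), 1 of 5 T-cell markers (Lck), 0 of 4 myeloid, 1 of 3 erythroid (Klf1) and 1 of 4 fibroblast or muscle markers (Col1a1). By mean level, Rag1 (3.91) and Cd22 (3.51) lay below Klf1 (4.58), Lck (4.24) and Col1a1 (3.96). The other pre-B markers with a DHS stood at 4.88 (Blnk) to 5.99 (Ebf1). The noncoding promoters' spread between replicates (SD) was 0.25 to 0.28 in the Ikaros line from 2 to 24 h, 0.36 to 0.54 in the control line at those times, and 0.44 (control) and 0.48 (Ikaros) at 0 h. Control 0 h replicate 6 and Ikaros 0 h replicate 4 stood apart by their weight in the results at 0 h, which are therefore also given without them. Calls are from limma, fitted to all 52788 DHS, with the Benjamini-Hochberg adjusted p under 0.05 and all 1063 noncoding promoters tested.

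At 0 h the lines already differed at 100 noncoding promoter DHS (9.41%), against 12.9% of all DHS. In the Ikaros line 67 were higher and 33 lower, against 7.81% of all DHS higher and 5.04% lower. A further measure, groups of 3 that did not overlap, gave 233 (21.9%), against 23.6% of all DHS. The share called was thus not above the background. Leaving out Control 0 h replicate 6 left 33 calls (26 higher, 7 lower), and leaving out Ikaros 0 h replicate 4 left 66. With a spread per group in place of a shared one 19 were called, and with only the groups compared in the fit 0. Because 0 h cells were obtained separately, the line and any difference in how these cells were grown cannot be told apart.

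The direction at 0 h went with CpG content. Of the 210 CpG-rich noncoding promoters, 41 were higher and 3 lower in the Ikaros line, and the median difference over all 210 was 0.34, with 160 positive. Of the other 853, 26 were higher and 30 lower, with a median of -0.05 that turned to 0.04 once trends on level, GC content and width were removed from each library. That removal left the CpG-rich ones at a median of 0.07 with 6 higher and 7 lower, and quantile normalization left them at 0.18 with 29 and 4. The CpG-rich coding promoters had a median of 0.48 as deposited and 0.04 without the trends. Within the 3 batches the median of the CpG-rich noncoding promoters was 0.28, 0.17 and 0.49. The part of level, GC content and width in these differences was not tested beyond that removal.

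The 67 that were higher had a median GC content of 59.4% and a median level of 4.54, and 43 of them held the TSS. The 33 that were lower had a median GC content of 50.1% and a median level of 3.85, and 7 held the TSS. Small RNA hosts gave 17 calls of 70 (24.3%, against 12.9% of all DHS), of which 16 were higher. Of the hosts 60.0% were CpG-rich, and the class of CpG-rich noncoding promoters had 41 higher and 3 lower among 210. CpG-rich coding promoters had 3126 higher and 15 lower among 8365. Under quantile normalization the small RNA hosts had 11 higher and 1 lower, and with trends removed 4 and 2. By gene type, 35 lincRNA DHS were higher and 18 lower, 16 antisense DHS were higher and 11 lower, and 16 processed_transcript DHS were higher and 4 lower.

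The start of Dleu2, the host transcript of miR-15a and miR-16-1, gave the largest positive difference at 0 h. Its 118 bp DHS read 4.03, 4.55 and 3.80 in the control line and 6.07, 5.91 and 5.44 in the Ikaros line. All Ikaros values lay above all control values. The difference was 1.68 ± 0.30 (SE, limma adjusted p = 0.000847), which is 3.20-fold, and it was 1.97 with the trends removed (limma adjusted p = 0.00123). A 500 bp DHS of the same gene, inside the transcribed region, was higher by 1.01 (limma adjusted p = 0.00767).

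Mir155hg, also called Bic, is the host of miR-155, a microRNA of activated lymphocytes. Its 130 bp DHS just upstream of the start read 3.08, 3.91 and 0.30 in the control line and 4.21, 4.24 and 3.82 in the Ikaros line. The groups overlapped, and 1 control library was far below the rest. The difference was 1.66 ± 0.51 (SE, limma adjusted p = 0.0315) and was 0.59 (adjusted p = 0.384) without Control 0 h replicate 6. The neighbouring 500 bp DHS of Mir155hg read 2.86, 2.91 and 2.92 against 4.25, 3.54 and 3.96, which did not overlap (difference 1.02, limma adjusted p = 0.0246).

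Pvt1, a noncoding gene beside the Myc proto-oncogene, read 2.70, 2.96 and 2.90 in the control line and 4.77, 3.83 and 4.01 in the Ikaros line at the DHS over its start. The groups did not overlap. The difference was 1.35 ± 0.38 (limma adjusted p = 0.0179), but it was 0.34 with the trends removed (adjusted p = 0.644) and lost its call without any of 3 of the 6 libraries (without Ikaros 0 h replicate 4, 1.07, adjusted p = 0.0988). Mir17hg, the host of the miR-17 to miR-92 cluster, read 3.70, 3.82 and 3.02 against 4.68, 5.27 and 4.34. No values overlapped and the difference was 1.25 (limma adjusted p = 0.0142), yet with the trends removed it was -0.0062. At 80.5% this DHS had the highest GC content of the 1063.

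The other DHS named on the higher side at 0 h lay at genes known by clone or model names. Gm8066, on the opposite strand within Epo, the erythropoietin gene, read 3.19, 3.52 and 2.88 against 4.88, 4.53 and 4.09. Values of the lines stayed apart, and the difference of 1.30 (limma adjusted p = 0.000847) was 0.14 (adjusted p = 0.765) with the trends removed. The 104 bp DHS of 4932412D23Rik read 5.81, 5.74 and 4.85 against 6.82, 7.05 and 6.72 (difference 1.40, limma adjusted p = 0.00342), again without overlap.

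Of the 33 lower DHS at 0 h, 15 were at most 200 bp wide and 18 wider. Gm15945, on the opposite strand within Top1mt (a mitochondrial topoisomerase), read 3.74, 3.95 and 4.33 in the control line and 1.47, 0.44 and 3.28 in the Ikaros line. There was no overlap although the Ikaros values spread widely. The difference was -2.27 ± 0.48 (limma adjusted p = 0.00291), a 4.83-fold lower level. Gm15777, on the opposite strand within Coq2, an enzyme of ubiquinone synthesis, read 4.88, 4.74 and 5.61 against 2.84, 3.90 and 4.24 (difference -1.41, limma adjusted p = 0.00097), also without overlap.

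Gm19331 lies in the immunoglobulin heavy chain locus, and its DHS overlaps the variable segment Ighv1-62-1. It read 3.44, 2.74 and 2.67 in the control line and 0.36, -0.08 and 2.66 in the Ikaros line. The groups just failed to overlap, since 1 Ikaros library was at the control level. The difference was -1.97 ± 0.53 (limma adjusted p = 0.0146), and it was -1.02 (adjusted p = 0.16) under quantile normalization. Variable segments have near-identical copies, so its reads are uncertain. Gm13905 read 4.50, 3.99 and 4.26 against 0.16, 3.96 and 3.50, and its difference of -1.71 (limma adjusted p = 0.0330) was -0.52 (adjusted p = 0.375) without Ikaros 0 h replicate 4. The 2810433D01Rik DHS was lower by 1.32 on the log2 scale (-1.32, limma adjusted p = 0.0222), and without Ikaros 0 h replicate 4 the difference was -0.89 (adjusted p = 0.154).

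Among the DHS called at 0 h, 18 were named for the size of this difference or as known noncoding RNAs. Of these 18, 7 kept their call without any one library, and 4 of those also kept it under quantile normalization and with the trends removed. These 4 were the 118 bp DHS of Dleu2, Gm15945, Gm15777 and the 515 bp DHS of Malat1. With only the groups compared in the fit, 0 noncoding promoters were called at 0 h, so these 4 were not called there either.

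**Figure D2:**
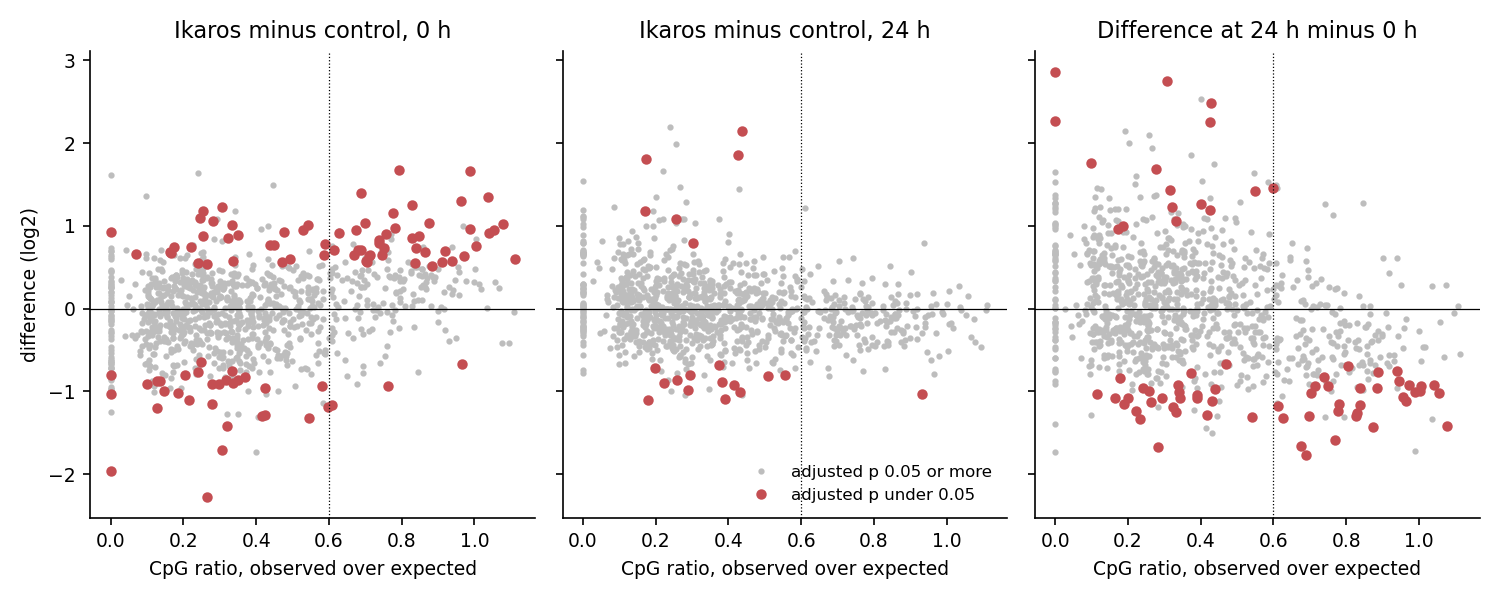
Ikaros minus control difference (log2) of each of the 1063 noncoding promoter DHS against its CpG ratio at 0 h, at 24 h, and as the change between them; red points have an adjusted p under 0.05 and the dotted line marks a ratio of 0.6. To the right of the line, red points at 0 h are mostly above 0 (41 of 44), 1 is left at 24 h, and all 31 in the change are below 0.

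At 24 h, 20 noncoding promoter DHS separated the lines (1.88%), against 1.33% of all DHS. In the Ikaros line 6 were higher and 14 lower, against 0.809% of all DHS higher and 0.517% lower. Coding promoters had 16 higher and 69 lower among 11589, and distal DHS had 398 higher and 188 lower among 39131. With quantile normalization the noncoding promoters had 5 higher and 20 lower, and with trends removed 4 and 10. With the batch as a block 13 were called. Groups of 3 did not overlap at 281 noncoding promoters (26.4%), against 25.5% of all DHS. Over all 1063 the median difference was -0.03, and it was -0.03, -0.04 and -0.04 within the 3 batches. All 20 called DHS had groups without overlap, so the sign was shared by the 3 batches.

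Of the 20 called DHS at 24 h, 19 were not CpG-rich, as were 853 of all 1063 and 56 of the 100 called at 0 h. Gm16754 (ratio 0.931) was the exception, and 7 of the 20 held the TSS. The 6 that were higher had a median mean level of 3.52 (2.94 to 4.91), and the 14 that were lower had one of 5.14 (4.11 to 5.93). Only 1110019B22Rik was called at both 0 h and 24 h. By gene type, 5 lincRNA DHS were higher and 7 lower, 1 antisense DHS was higher and 5 lower, and 2 processed_transcript DHS were lower. In the central 100 bp, the Ikaros core occurred in 1 of the 14 and 0 of the 6, against 8.58% of all DHS. CCCTC occurred in 9 of the 14 and 1 of the 6, against 36.9% of all DHS.

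**Figure D3:**
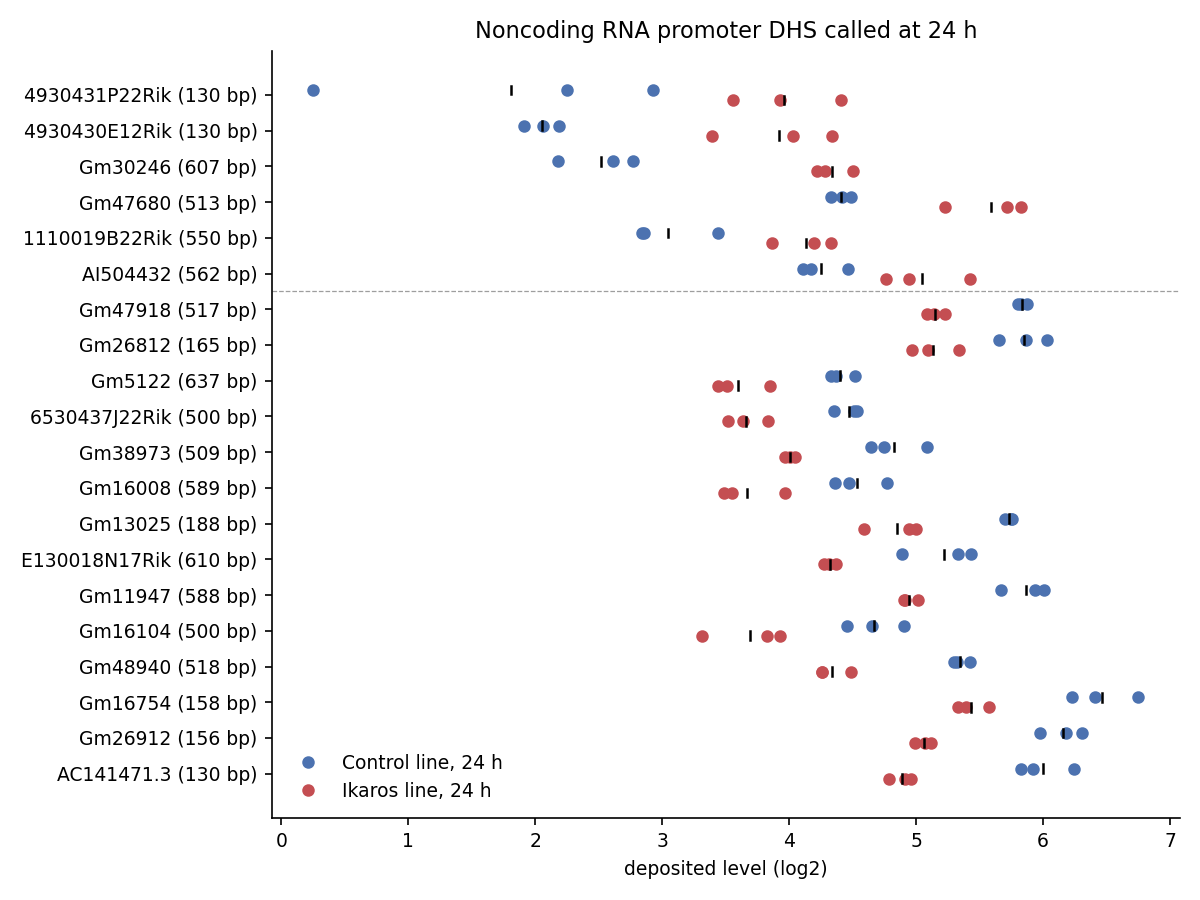
Deposited level (log2) at 24 h of the 20 noncoding promoter DHS called there, with 3 control libraries in blue, 3 Ikaros libraries in red and a black bar at each mean; the dashed line separates the 6 higher in the Ikaros line (above) from the 14 lower. The 2 colours do not overlap at any of the 20, and 4 of the 6 upper DHS, but none of the 14 lower ones, have a mean level under 4 over the 36 libraries.

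Gm26912, a lincRNA, gave the smallest p of the lower side. Its DHS overlaps a tRNA gene. At 24 h it read 5.98, 6.31 and 6.18 in the control line and 4.99, 5.11 and 5.07 in the Ikaros line. The groups were far apart. The difference was -1.10 ± 0.16 (SE, limma adjusted p = 0.000673), a 2.14-fold lower level, and the lines were level at 0 h (-0.02). The Ikaros means ran 5.82, 5.38, 5.34, 5.13, 5.21 and 5.06 from 0 to 24 h, against 5.84, 5.89, 5.89, 6.11, 6.24 and 6.16 in the control line. It was also called at 12 h (-0.97, limma adjusted p = 0.00394) and 18 h (-1.03, limma adjusted p = 0.00127). Because tRNA genes have near-identical copies, reads at this DHS are uncertain.

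Gm16754, antisense in annotation and 13393 bp from Keap1, the sensor of oxidative stress, read 6.75, 6.40 and 6.23 in the control line and 5.33, 5.57 and 5.39 in the Ikaros line at 24 h. No values overlapped. The difference was -1.03 ± 0.19 (limma adjusted p = 0.00543), after -0.40 at 0 h (adjusted p = 0.159), and it was called from 6 h on (means at 6 h 6.49 and 5.49, limma adjusted p = 0.00834). Gm48940, in an intron and on the opposite strand to Slc35f4, a solute carrier gene, read 5.30, 5.32 and 5.43 against 4.49, 4.26 and 4.26 (difference -1.01, limma adjusted p = 0.00366). The groups did not overlap, and its 0 h difference was 0.10.

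Gm11947 lies on the opposite strand within Smtn, which encodes the smooth muscle protein smoothelin, 1651 bp from the Smtn TSS. It read 5.93, 5.67 and 6.01 in the control line and 4.91, 5.01 and 4.90 in the Ikaros line at 24 h. No values overlapped, and the difference was -0.93 ± 0.17 (limma adjusted p = 0.00579). AC141471.3 read 6.25, 5.83 and 5.92 against 4.79, 4.96 and 4.92 (difference -1.11, limma adjusted p = 0.0174), but the call was lost without any of 3 of the 6 libraries (without Ikaros 24 h replicate 4, adjusted p = 0.0957).

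The remaining 9 lower DHS had differences from -0.98 to -0.68. They were Gm16104 in Nfic (a nuclear factor I gene), E130018N17Rik, Gm13025, Gm16008 (5605 bp from Tnfrsf18, which encodes the receptor GITR), Gm38973, 6530437J22Rik, Gm5122, Gm26812 and Gm47918. The last 4 of these were named after their values were seen. E130018N17Rik, with the TSS inside its DHS, read 5.43, 4.89 and 5.33 against 4.27, 4.37 and 4.32 (difference -0.90, limma adjusted p = 0.0195). Each of the 9 lost its call without at least 4 of the 6 libraries taken singly, and with the batch as a block Gm16104 (adjusted p = 0.0509), Gm13025 (0.0511), Gm38973 (0.0523) and Gm26812 (0.0512) passed the threshold of 0.05 no longer.

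On the higher side, Gm47680 gave the smallest p. This lincRNA lies 71245 bp from Fli1, which encodes an ETS-family transcription factor. It read 4.42, 4.33 and 4.49 in the control line and 5.83, 5.71 and 5.23 in the Ikaros line at 24 h. All Ikaros values lay above all control values. The difference was 1.18 ± 0.18 (limma adjusted p = 0.000726), which is 2.26-fold. The control means stayed between 4.39 and 4.78 over the 6 times, and the Ikaros means were 4.74, 5.25, 5.29, 5.52, 5.43 and 5.59 in order of time. It was called at 12 h (1.04, limma adjusted p = 0.00518) and 18 h (1.04, limma adjusted p = 0.00347) as well.

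Gm30246 and 4930431P22Rik are neighbouring lincRNAs on chromosome 14, over 200 kb from the nearest coding gene, Serp2. Gm30246 read 2.61, 2.77 and 2.18 in the control line and 4.50, 4.29 and 4.22 in the Ikaros line at 24 h. Values of the lines stayed apart, and the difference was 1.81 ± 0.29 (limma adjusted p = 0.00208), a 3.52-fold level. It was already 0.75 at 0 h (adjusted p = 0.0868). 4930431P22Rik read 2.25, 2.93 and 0.25 against 3.55, 3.93 and 4.41. The difference of 2.15 (limma adjusted p = 0.0462) rested on 1 low control library: without Control 24 h replicate 6 it was 1.37 (adjusted p = 0.267), and with the block its adjusted p was 0.0640.

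4930430E12Rik read 2.19, 2.06 and 1.91 in the control line and 3.39, 4.03 and 4.33 in the Ikaros line (difference 1.86, limma adjusted p = 0.0391). There was no overlap, but the call was lost without any one of the 6 libraries and with the block (adjusted p = 0.0504). Here the control line moved as well, from a mean of 3.58 at 0 h to 2.06 at 24 h, while the Ikaros mean went from 3.19 to 3.92. AI504432, 1878 bp from Kcna3 (a lymphocyte potassium channel gene), read 4.17, 4.11 and 4.46 against 5.42, 4.94 and 4.76 (difference 0.80, limma adjusted p = 0.0287). 1110019B22Rik read 3.44, 2.86 and 2.84 against 4.19, 3.87 and 4.33 (1.08, limma adjusted p = 0.0409). Neither pair of groups overlapped, and 1110019B22Rik was higher at 0 h too, by 0.87 (limma adjusted p = 0.0334). Its 24 h call was lost without any of 5 of the 6 libraries and with the block (adjusted p = 0.0525), and that of AI504432 without any of 4.

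Of the 20 DHS, 6 kept their call at 24 h without any one library, with the block, under quantile normalization and with the trends removed. They were Gm26912, Gm16754, Gm48940, Gm11947, Gm47680 and Gm30246. Counts over all noncoding promoters were 6 to 12 when any one of the 6 libraries at 24 h was left out, so that every library had weight in the count. Without a whole batch in all groups, 6 were called (no replicate 4), 1 (no replicate 6) or 0 (no replicate 5, with 125 at an unadjusted p under 0.05). At an unadjusted p under 0.05 with all libraries, 165 noncoding promoters differed.

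**Figure D4:**
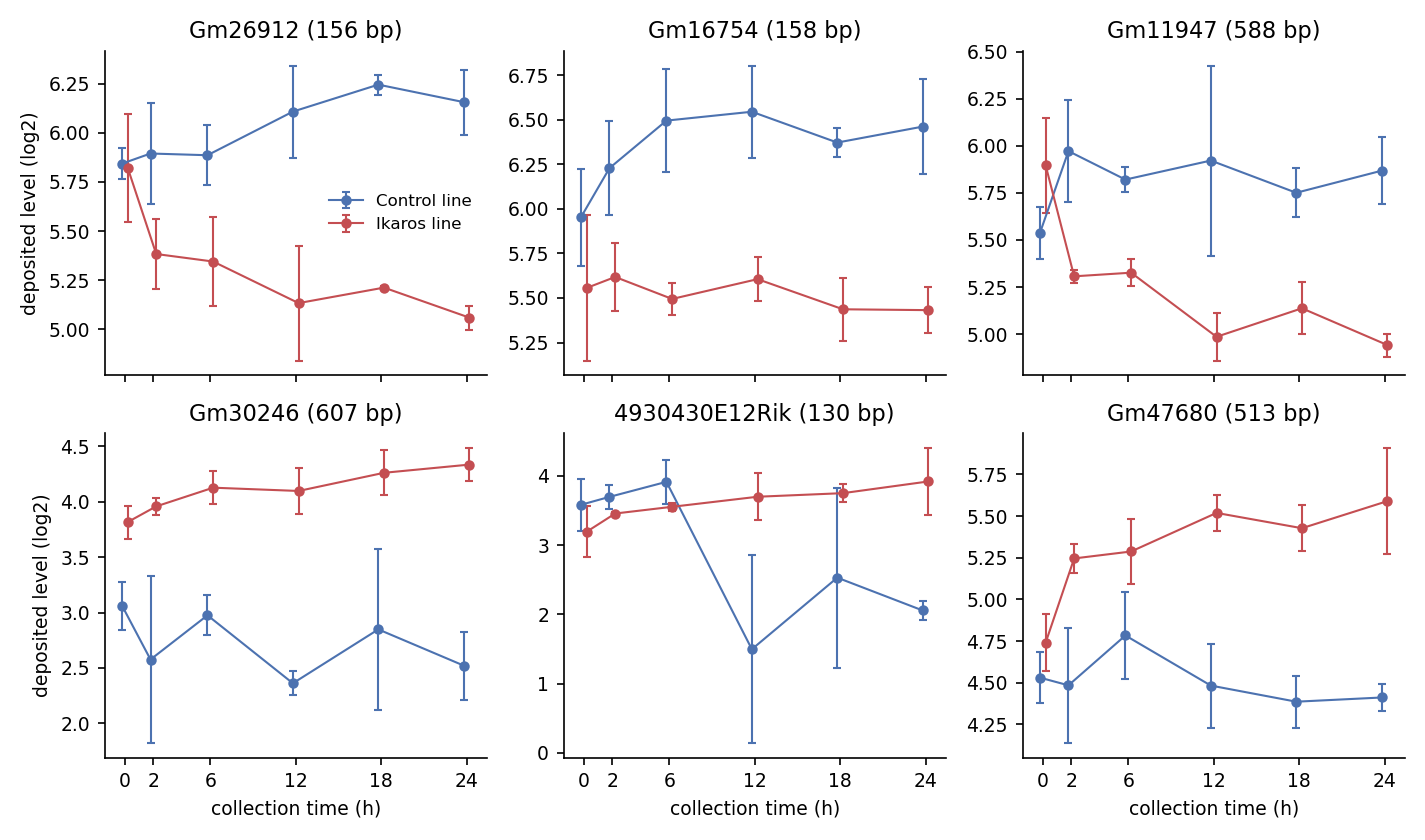
Mean deposited level (log2) with SD over 3 libraries against collection time (h) for 6 noncoding promoter DHS, control line in blue and Ikaros line in red, each panel with its own level axis. At Gm26912 the lines start at 5.84 and 5.82 and end at 6.16 and 5.06, while at 4930430E12Rik the control line passes from 3.58 to 2.06.

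Between these times few noncoding promoters were called. At 2 h there were 2, both higher (0.195% of all DHS were called, 0.17% higher and 0.0246% lower). These were Gm30246, at 1.72, 2.85 and 3.15 in the control line and 3.87, 4.01 and 3.99 in the Ikaros line (difference 1.38, limma adjusted p = 0.0381), and Gm29590 (1.31, limma adjusted p = 0.0331). Neither group pair of Gm30246 overlapped, yet with the batch as a block both calls were lost (adjusted p = 0.0611 and 0.0516). At 6 h there were 5, with 2 higher and 3 lower (0.578% of all DHS, 0.422% higher and 0.155% lower). The higher ones were Gm28857 (1.40, limma adjusted p = 0.0139) and Gm8066 (1.03, limma adjusted p = 0.0335), and the lower ones Gm49722 (-1.15, limma adjusted p = 0.0121), Gm16754 and Gm48940 (-0.73, limma adjusted p = 0.0471, and 0.0611 with the block). With trends removed the split at 6 h was 0 and 2.

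At 12 h there were 18 calls (1.69%, against 1.31% of all DHS), 6 higher and 12 lower (0.887% and 0.428% of all DHS). At 18 h there were 14 (1.32%, against 0.699%), 7 higher and 7 lower (0.5% and 0.199% of all DHS). That split at 18 h was 3 and 4 under quantile normalization and 5 and 3 with trends removed. The largest difference at 18 h was at Gm48855, on the opposite strand within Map2k1 (the kinase MEK1). It read 2.73, -0.01 and -0.01 in the control line and 4.10, 4.01 and 3.85 in the Ikaros line (difference 3.08, limma adjusted p = 0.0307). The groups did not overlap, but the call was lost without any of 5 of the 6 libraries. Gm39526, on the X chromosome, read 0.65, 1.42 and 0.65 against 2.84, 2.75 and 3.38 (2.08, limma adjusted p = 0.0334), without overlap and with the call lost in 5 of 6 such fits.

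Over 2 to 24 h, 30 noncoding promoters (2.82%) were called at least once, against 2.46% of all DHS. The calls at 12 h and 24 h shared 15 DHS, all with the same sign, which is 83.3% of those at 12 h and 15 of the 20 at 24 h. Those at 18 h and 24 h shared 10, and 7 DHS were called at 12, 18 and 24 h. None was called at all 5 times. The deposited noise correction leaves the 12 group means of the table in 6 dimensions, so that the times are not independent measurements. Along the course, the 6 higher DHS had, in order of time, median differences of 0.31, 0.49, 0.69, 1.39, 1.17 and 1.50, and those of the 14 lower ones were 0.04, -0.55, -0.54, -0.82, -0.69 and -0.89. These DHS were chosen at 24 h, so that the last value of each series is fixed by the choice.

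Whether the gap between the lines itself moved between 0 h and 24 h was tested as a contrast of the 2 differences, and 72 noncoding promoters passed it (6.77%), against 6.26% of all DHS. The change was positive at 16 and negative at 56, against 2.85% and 3.4% of all DHS. Over all DHS the median change was 0.12 as deposited and -0.035 under quantile normalization, and that of the noncoding promoters was -0.03 and -0.13. Relative to all DHS the noncoding promoters thus lay lower by either scaling. Calls were 7 and 29 under quantile normalization and 1 and 6 with trends removed. Without Control 0 h replicate 6 there were 19 calls.

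CpG content again went with the direction. All 31 CpG-rich noncoding promoters that were called were negative, and the median change over the 210 was -0.46 (-0.23 under quantile normalization, -0.09 with trends removed; -0.38, -0.27 and -0.73 within the 3 batches). Of the other 853, 16 were positive and 25 negative, with a median of 0.06 that turned to -0.08 under quantile normalization. With trends removed, the median of the others was -0.09 as well, with 1 positive and 2 negative calls among the CpG-rich ones and 0 and 4 among the others. The direction was not particular to noncoding promoters. CpG-rich coding promoters had 6 positive and 1157 negative calls among 8365 as deposited, with a median of -0.55. With trends removed they had 20 and 8, with a median of 0.03. Of the 70 DHS at small RNA hosts, 60.0% of them CpG-rich, 10 were called, against 6.26% of all DHS. All 10 were negative, against 3.4% of all DHS called negative. The hosts had 1 positive and 6 negative calls under quantile normalization, and 1 and 0 with trends removed. In 48 of the 72 the lines lay further apart at 0 h, 43 were also called at 0 h and 10 at 24 h. Of the 56 negative ones, 55 had a positive difference at 0 h, and of the 16 positive ones, 15 had a negative difference at 0 h. The change is the 24 h difference minus the 0 h one. Choosing DHS by it therefore favours such counts at 0 h, and they are not a separate result.

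The most stable change was at 2410080I02Rik, a lincRNA 5948 bp from Klf9, a zinc finger gene of the Krüppel-like family. At 0 h it read 4.21, 4.45 and 3.53 in the control line and 4.94, 5.14 and 4.96 in the Ikaros line, and at 24 h 4.50, 4.46 and 4.64 against 3.90, 3.85 and 3.70. No values overlapped at either time, and their order turned over. The change was -1.66 (limma adjusted p = 0.00491), and it kept its call without any one library, under quantile normalization and with trends removed (-1.18, limma adjusted p = 0.0442). Among 16 DHS called for this change and named for its size or as known noncoding RNAs, it was the one that kept its call in all of these.

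Malat1, an abundant RNA of nuclear speckles, read 4.94, 5.66 and 4.79 against 6.06, 6.27 and 6.17 at 0 h and 5.69, 5.36 and 5.61 against 5.19, 5.25 and 5.03 at 24 h, at a 515 bp DHS upstream of its start. Values of the lines stayed apart at either time. The difference at 0 h was 1.04 (limma adjusted p = 0.00313), that at 24 h was -0.40 (adjusted p = 0.414) and the change was -1.43 (limma adjusted p = 0.0119). The 104 bp DHS of 4932412D23Rik gave -1.77 (limma adjusted p = 0.0178), Gm15417, on the opposite strand within Zbtb7b (the lineage factor ThPOK), gave -1.68 (limma adjusted p = 0.0245), and Gm26901 gave -1.59 (limma adjusted p = 0.0251).

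On the positive side, 1700017G19Rik read 3.92, 3.35 and 2.94 against 2.66, 2.08 and 2.35 at 0 h and 2.81, 2.61 and 2.68 against 4.50, 4.42 and 3.53 at 24 h. There was no overlap at either time, and the order turned over. The change was 2.49 (limma adjusted p = 0.0136), with both lines moving in opposite directions. Gm19331 changed by 2.86 (limma adjusted p = 0.0260), Gm13905 by 2.75 (0.0312), Gm39526 by 2.27 (0.0445) and 4930430E12Rik by 2.25 (0.0397). With the block the adjusted p of Gm39526 was 0.0563.

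Within the Ikaros line, a test of any difference between its 6 times was passed by 27 noncoding promoters (2.54%), against 2.29% of all DHS. Within the control line it was passed by 1, against 0.148% of all DHS. That 1 was 4930430E12Rik (limma F-test, adjusted p = 0.0337). The smallest p in the Ikaros line was at Gm12976 (limma F-test, adjusted p = 0.00249), where the Ikaros means were 5.22, 4.49, 4.56, 4.20, 4.38 and 4.20 in order of time. The step from 0 to 2 h was the largest one. The test sets each later time against 0 h, and the 0 h cells were obtained separately. Time and origin of these cells therefore cannot be told apart in it. 2410080I02Rik (adjusted p = 0.00493) ran 5.01, 4.22, 4.32, 3.78, 4.09 and 3.82. Gm7457 (adjusted p = 0.00753) went up, with means of 3.34, 4.52, 4.33, 5.06, 4.59 and 4.93, as did Gm15870 (adjusted p = 0.0104), from 2.90 to 4.17. Gm11947 (adjusted p = 0.0105) went from 5.90 to 4.94. Leaving out Ikaros 0 h replicate 4 left 3 of the 27 calls in number, and leaving out replicates 5 or 6 left 11 or 16. Without Ikaros 12 h replicates 4 or 6 there were 13 or 14, and without Ikaros 24 h replicates 4 or 5 there were 16 or 12. In the control line, counts without 1 library ran from 0 to 5.

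RefSeq tRNA genes overlapped 12 of the noncoding promoter DHS, a feature that was looked at after the values of Gm26912 had been seen and is given as a description. tRNA genes are transcribed by RNA polymerase III and not from the noncoding promoter itself. These 12 had a median mean level of 4.94. At 24 h all 12 were negative, with a median of -0.40 and a range of -1.10 to -0.07. The median was -0.03 over the 1063 and -0.10 over the 210 CpG-rich ones, the class of most of the 12. Of the 12, 1 (Gm26912) was called at 24 h, against 1.33% of all DHS. At 0 h 1 of the 12 was negative and the median was 0.29, against 0.34 over the CpG-rich ones. At that time 2 were called, both higher, against 12.9% of all DHS. The times between had medians of -0.33, -0.17, -0.45 and -0.36. The change from 0 h to 24 h was negative at all 12 (median -0.65, against -0.46 over the CpG-rich ones), and 4 were called, against 6.26% of all DHS. For the change 1 of the 12 was called under quantile normalization and 0 with trends removed, and at 0 h 0 were called under either.

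At 24 h the largest values after Gm26912 were at B230208H11Rik, over the leucine tRNA gene n-TLtaa3 (-0.62, adjusted p = 0.0662), at Gm40190, over the arginine tRNA gene n-TRtct2 (-0.58), and at Gm46404, over n-TRacg5 (-0.56). Under quantile normalization 12 of 12 were negative (median -0.32), and with trends removed 11 of 12 (median -0.34). The 135 DHS that overlap a tRNA gene elsewhere in the table had 130 negative at 24 h and a median of -0.45. Of these 135, 22 were called, all lower, against 0.517% of all DHS called lower. The share of reads from other copies was not tested.

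Among RNAs with a described role, 98 symbols were listed, together with any further host named Snhg or Mir...hg, and 31 of these genes had a noncoding promoter DHS. Their 39 DHS included 28 that were CpG-rich. At 0 h 11 of the 39 were called, all higher in the Ikaros line, against 12.9% of all DHS called and 7.81% called higher. The median of the 39 was 0.39 (0.17 under quantile normalization with 9 higher and 1 lower, 0.14 with trends removed with 2 and 1). At 0 h the median was -0.06 over all DHS and 0.34 over the 210 CpG-rich noncoding promoters, of which 41 were higher and 3 lower. At 24 h 0 of the 39 were called by limma (6 at an unadjusted p under 0.05), against 1.33% of all DHS. The median there was -0.12 and 11 were positive, against medians of 0.06 over all DHS and -0.10 over the CpG-rich noncoding promoters. For the change 7 were called, all negative, against 6.26% of all DHS called and 3.4% called negative. The median change was -0.56 (-0.28 and -0.15 under the other scalings), and it was -0.46 over the CpG-rich noncoding promoters.

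Hosts of small RNAs in that list, the Snhg and Mir host genes, had 15 DHS of 12 genes, and 13 of these DHS were CpG-rich. Of these 15, 4 were called at 0 h (Mir17hg, both Mir155hg DHS and Snhg5, all higher), against 12.9% of all DHS. At 24 h 0 of the 15 were called (0 at an unadjusted p under 0.05), against 1.33% of all DHS. Snhg5, a snoRNA host with a mean level of 5.85, was higher at 0 h by 0.60 (limma adjusted p = 0.0237). Mir142hg, the host of miR-142 of blood cells, was open in all groups (5.50 at its start), with a 24 h difference of -0.31 (adjusted p = 0.454). Its values at 24 h were 5.24, 5.61 and 5.77 in the control line and 5.42, 5.22 and 5.06 in the Ikaros line, which overlapped.

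Imprinted loci were represented by Kcnq1ot1 and Nespas, antisense RNAs of the Kcnq1 and Gnas loci. Kcnq1ot1 stood at 5.00. Its values at 24 h were 5.14, 5.24 and 5.29 in the control line and 4.83, 4.67 and 4.64 in the Ikaros line, which did not overlap, but the difference of -0.51 did not pass the test (adjusted p = 0.222). Nespas read 4.41, 4.47 and 3.72 against 5.03, 4.56 and 5.11 at 0 h, and 4.80, 4.74 and 4.79 against 4.52, 4.12 and 4.28 at 24 h. The groups did not overlap at either time and the order turned over. The 0 h difference was 0.70 (limma adjusted p = 0.0218), the 24 h one -0.47 (adjusted p = 0.258) and the change -1.18 (limma adjusted p = 0.0194).

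At the X inactivation centre, DHS lay near the starts of Xist, the RNA that coats the inactive X, and of its neighbours Jpx and Ftx. Their mean levels over the 36 libraries were 2.62, 3.37 and 4.95, so the order ran from Ftx down to Xist, and the DHS near Xist was among the least open of the 39. Differences at 24 h were -0.12, -0.21 and -0.22 (adjusted p = 0.917, 0.77 and 0.686). Firre, an X-linked RNA of nuclear architecture, was higher at 0 h (0.77, limma adjusted p = 0.0436, and 0.0561 with the block) and gave -0.35 at 24 h.

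Other calls for the change were Trp53cor1 (lincRNA-p21), near the cell cycle inhibitor gene Cdkn1a, at -1.04 (limma adjusted p = 0.0251), Lockd, near the cell cycle inhibitor gene Cdkn1b, at -0.99 (limma adjusted p = 0.0343), and Gm27017, a further start in the Dleu2 gene, at -0.75 (limma adjusted p = 0.0480, and 0.0621 with the block). The 500 bp DHS of Dleu2 gave -1.31 (limma adjusted p = 0.0262) and that of Mir155hg -1.42 (limma adjusted p = 0.0435, and 0.0544 with the block). Each of these 5 lost its call without at least 3 of the 12 libraries taken singly, and also with trends removed.

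**Figure D5:**
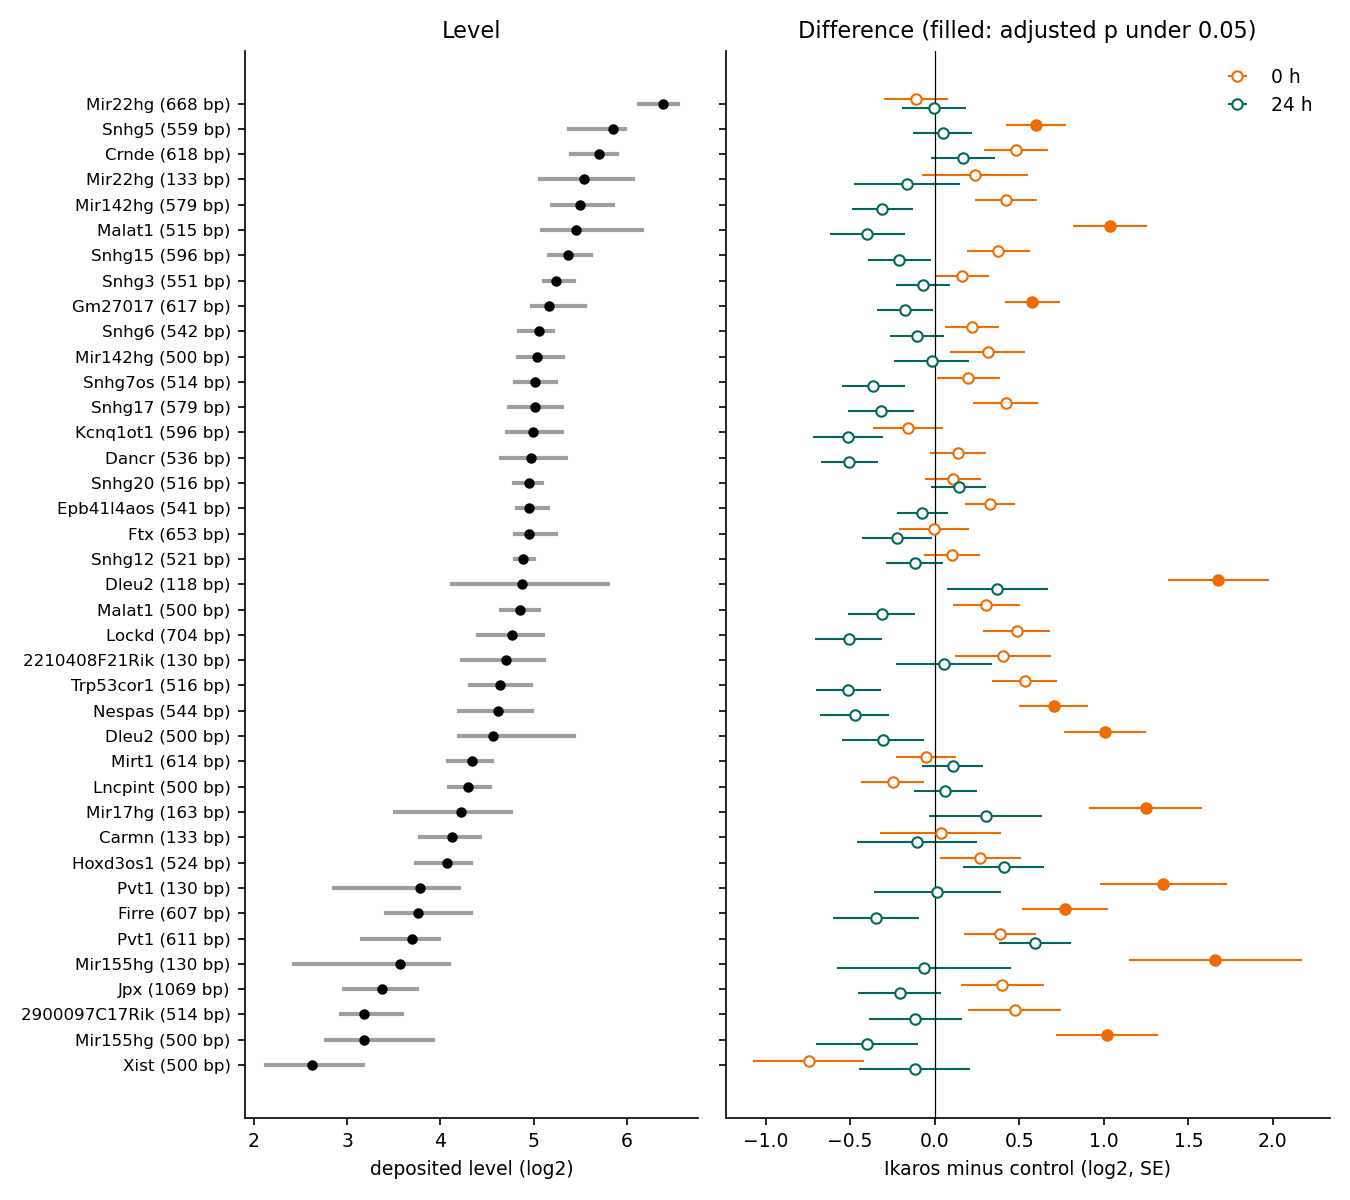
The 39 DHS at promoters of listed noncoding RNAs, ordered by mean level, with the range of the 12 group means as a grey line and the mean over 36 libraries as a black point (left, log2), and the Ikaros minus control difference with its SE at 0 h and 24 h (right, log2), filled where the adjusted p was under 0.05. The 11 filled points are all at 0 h and above 0, and no 24 h point is filled.

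Antigen receptor loci held few of these DHS, with 2 in the heavy chain locus (Gm30948 and Gm19331), 1 in the T-cell receptor beta locus (5830405F06Rik) and 0 in the kappa, lambda, alpha and gamma loci. At 24 h the called noncoding promoters lay at a median of 17801 bp from the nearest coding TSS. For 11 of the 20 that nearest gene had a promoter DHS of its own, and the most open one of each gene was taken. Of these 11, 0 were called (0.733% of all coding promoter DHS were), while 6 had the same sign. At 0 h such a DHS was present for 57 of the 100, and 28 of these were called, 22 of them with the same sign. Of all coding promoter DHS 29.0% were called at 0 h, but that share includes less open ones. CpG-rich coding promoters alone had 3126 higher and 15 lower among 8365. Whether neighbours changed together was not tested.

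Genes with more than 1 noncoding promoter DHS numbered 103, with 217 DHS among them and at most 3 each. The DHS of one gene had differences of one sign in 63 of 103 at 0 h and 62 of 103 at 24 h. At 24 h 4 of these genes had a called DHS and 0 had more than 1. At 0 h 18 had one and 3 had at least 2, which were Dleu2, Mir155hg and 6720427I07Rik (named after its values were seen). DHS of one gene share that gene and are not separate replicates.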

How the data were processed

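DNase-seq was run on 36 libraries of the B3 line, 18 from each line. The authors trimmed reads to 36 bp, mapped them to mm10 with Bowtie2, called DHS with HOMER in each replicate, merged them into a consensus, counted reads with bedtools, removed DHS with under 10 reads in all time points, and applied RPKM, TMM scaling and the ARSyN noise correction. The values deposited are log2 RPKM after these steps. Its base was settled from the values, since base 2 gives sums of 369487 to 432755 RPM over all DHS. Depth per library is not known, and the correction leaves the residuals in 23 dimensions, so that p-values measure the spread left after it.

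Here each DHS was placed by GENCODE vM21 and RefSeq GRCm38.p6; whether the starts count from 0 or 1 is not given in the sources used here, which leaves positions uncertain by 1 bp. limma 3.58.1 in R 4.3.3 (12 group means, trended variance, Benjamini-Hochberg over 52788 DHS, adjusted p under 0.05) gave the contrasts, and it was tested on simulated data. The labels tie each replicate number to a batch, so the numbers pair the samples. Same-numbered libraries had a mean correlation of deviations of -0.0127 and others 0.00639, and the main fit has no block. Alternatives were the block, quantile normalization, removal of trends on level, GC content and width (splines, 5 degrees of freedom), spread per group, a filter on the lowest 25% of mean levels, fits to the compared groups alone, a 500 bp window and leaving out each library.

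The members, gene lists and naming rule were chosen with earlier results of these data known. Named were the DHS with the largest differences each way among those called (10 at 24 h, 5 at 0 h and for the change, 3 at other times), the 5 with the largest F of each test, the 10 highest means and all DHS of the listed RNAs. Of the marker list and the sequences, 1 gene and 1 sequence are not reported here.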

Additional observations from a re-analysis of the deposited data

Results flagged for a closer look

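The Ikaros minus control difference itself differed between 0 h and 24 h at 72 noncoding promoter DHS, by the limma contrast of the 2 differences. The 10 named ones were singled out for that tested change. It was positive at Gm19331 (2.86), Gm13905 (2.75), 1700017G19Rik (2.49), Gm39526 (2.27) and 4930430E12Rik (2.25), and negative at 4932412D23Rik (-1.77), Gm15417 (-1.68), 2410080I02Rik (-1.66), Gm26901 (-1.59) and Malat1 (-1.43). Of these, 2410080I02Rik, Malat1 and 1700017G19Rik kept their call without any one of the 12 libraries. The 0 h cells were obtained separately, and time and origin of these cells cannot be told apart. Groups of 3 were not tested for outlying libraries.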

How the results depend on the processing

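At 0 h the 100 calls became 36 with trends on level, GC content and width removed, 19 with a spread per group and 0 with only the groups compared (141 at an unadjusted p under 0.05 in that limma fit). They ran from 17 to 123 when 1 library, or 1 replicate number in all groups, was left out. At 2 h the 2 calls became 1 under quantile normalization and 1 with trends removed, and 0 with the replicate block, with a spread per group, with the lowest 25% of DHS left out, with only the groups compared and with a window of 500 bp (range without a library or replicate number 0 to 11). At 6 h the 5 calls became 2 with trends removed and 0 with only the groups compared (0 to 4). At 12 h the 18 became 7 and 0 (0 to 24). At 18 h the 14 became 7 under quantile normalization, 8 with trends removed, 44 with a spread per group and 2 with only the groups compared (0 to 11). At 24 h the 20 became 13 with the replicate block and 75 with a spread per group (0 to 12). The 72 calls for the change became 36 under quantile normalization, 7 with trends removed, 45 with a spread per group and 0 with only the groups compared (3 to 107). The 27 calls of the F-test in the Ikaros line became 12 with trends removed and 75 with only the groups compared (0 to 28). The 1 in the control line became 0 under quantile normalization, with trends removed, with a spread per group, with the lowest 25% left out and with only the groups compared (0 to 13).

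Besides the libraries already named at 0 h and 24 h and for the Ikaros F-test, these single libraries moved a count by over 1.5 times. At 12 h, leaving out Ikaros replicate 4, 5 or 6 left 5, 6 or 3 calls and leaving out control replicate 5 left 6. At 18 h, leaving out control replicate 4 or 6 left 7 or 5, and the Ikaros replicates left 2, 5 and 2. At 6 h the Ikaros replicates left 2, 0 and 1, and at 2 h control replicates 5 and 6 left 11 and 8 while each Ikaros replicate left 0. For the change, Control 24 h replicates 4 and 6 left 38 each, Ikaros 0 h replicate 4 left 45, and the Ikaros 24 h replicates left 43, 29 and 38. For the F-test in the control line, Control 0 h replicates 4 and 6 left 3 and 0, the 2 h replicates 2, 5 and 2, 6 h replicate 4 left 3, and 12 h replicates 5 and 6 left 2 each. Each cause was not tested beyond the smaller number of samples in such fits.

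The gap in median level to coding promoters, -0.54, was -0.25 among DHS of at most 200 bp, lower in 35 of 36 libraries. The 0 h difference at Mir17hg turned to -0.0062 with trends removed. Over the values of named DHS, 2348 alternatives left direction and side of the threshold as they were, 622 lost the call, 28 gained one and 1 reversed. Apart from the calls given with the block above, the replicate block changed no count by over 1.5 times. Depth per library is not known, so the precision of weakly open DHS cannot be stated.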
